A study of Mus musculus with 6 samples.

Results

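The IFIT and IFITM genes encode antiviral protein families that were followed here in a mouse melanoma line, D4M-3A, with and without a knockout of Nfkbiz. The members were found by name in the deposited gene tables, and all 7 were listed among 43043 genes. They comprise the 4 IFIT genes Ifit1, Ifit2, Ifit3 and Ifit3b and the 3 IFITM genes Ifitm1, Ifitm2 and Ifitm3. RNA was sequenced from 3 control (Ctrl) samples, which carry an empty CRISPR-Cas9 construct, and from 3 Nfkbiz knockout (Nfkbiz KO) samples, which carry a construct against Nfkbiz. Cells of both groups were transduced by lentivirus, selected with puromycin and kept in RPMI-1640 medium with fetal calf serum, and no cytokine or other agent is named for these samples. Whether the knockout cells are a pool or derive from 1 clone is not given in the sources used here. Nfkbiz encodes IκBζ, a nuclear partner of NF-kB that can raise or lower the transcription of selected genes, and the comparison asks which transcripts differ when it is lost.

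Both families belong to the interferon-stimulated genes. Type I interferon binds a receptor at the cell surface, JAK kinases then act on transcription factors of the cytosol, and the complex ISGF3, of which IRF9 is the DNA-binding part, binds interferon-stimulated response elements (ISRE) in promoters. IFIT proteins are cytosolic and recognise viral RNA or hold back its translation, whereas IFITM proteins sit in the plasma and endosomal membranes and hinder the fusion of enveloped viruses with the cell. Tumor cells with an active interferon response often express such genes without any virus.

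The IFIT members lie in a cluster on chromosome 19 (GRCm39, plus strand), in the order Ifit2 (chr19:34527932-34554524), Ifit3 (chr19:34560899-34566443), Ifit3b (chr19:34585328-34590801) and Ifit1 (chr19:34618271-34632174). The IFIT-like gene Ifit1bl1 lies between Ifit3 and Ifit3b on the minus strand. The IFITM members lie on chromosome 7, in the order Ifitm2 (chr7:140534738-140536228, minus strand), Ifitm1 (chr7:140546316-140549743, plus strand) and Ifitm3 (chr7:140589499-140591282, minus strand). These positions are from the GENCODE annotation, in which all 7 genes are protein-coding. Promoter sequences were taken from RefSeq (GRCm38.p6), which covered every member, and each was found exactly once in GRCm39. Because the families are known as ISGF3 targets, the windows were searched for an ISRE, spelled GAAANNGAAA or, on the other strand, TTTCNNTTTC. A gamma-activated site (GAS, TTCNNNGAA, which reads the same on both strands) and an NF-kB site (GGGANNTTCC or GGAANNTCCC) were searched for as well. The 250 bases before the RefSeq transcript start are shown for the 6 members that were expressed, written along the strand of the gene, with motif matches in capitals. GENCODE places the gene starts of all 6 further upstream. The printed stretches of Ifitm2 and Ifitm3 thus lie within their GENCODE genes, and those of the IFIT genes run past the GENCODE starts. Positions before or after a start, and the first transcribed bases of Ifitm3, therefore hold for the RefSeq starts only.

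Ifit1 (chr19:34618039-34618288): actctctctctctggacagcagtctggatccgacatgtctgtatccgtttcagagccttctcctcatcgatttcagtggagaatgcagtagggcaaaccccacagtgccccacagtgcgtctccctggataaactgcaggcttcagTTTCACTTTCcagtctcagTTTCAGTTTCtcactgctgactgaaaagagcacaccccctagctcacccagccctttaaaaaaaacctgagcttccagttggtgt
Ifit3 (chr19:34560679-34560928): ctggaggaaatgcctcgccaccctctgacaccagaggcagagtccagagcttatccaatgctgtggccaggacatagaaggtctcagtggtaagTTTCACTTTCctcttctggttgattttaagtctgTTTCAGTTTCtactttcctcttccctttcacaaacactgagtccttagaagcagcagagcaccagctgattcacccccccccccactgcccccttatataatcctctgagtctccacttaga
Ifit3b (chr19:34585107-34585356): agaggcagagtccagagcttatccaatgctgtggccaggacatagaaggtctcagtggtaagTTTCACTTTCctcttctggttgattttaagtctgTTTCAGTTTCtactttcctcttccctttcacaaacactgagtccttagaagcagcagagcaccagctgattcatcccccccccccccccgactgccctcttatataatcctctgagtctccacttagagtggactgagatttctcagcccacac
Ifit2 (chr19:34527844-34528093): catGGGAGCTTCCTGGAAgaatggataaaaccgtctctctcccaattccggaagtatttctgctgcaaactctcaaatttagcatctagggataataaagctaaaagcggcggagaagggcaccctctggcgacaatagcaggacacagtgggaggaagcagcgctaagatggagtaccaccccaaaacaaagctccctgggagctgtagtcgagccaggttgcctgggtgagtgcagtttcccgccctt
Ifitm2 (chr7:140535875-140536124): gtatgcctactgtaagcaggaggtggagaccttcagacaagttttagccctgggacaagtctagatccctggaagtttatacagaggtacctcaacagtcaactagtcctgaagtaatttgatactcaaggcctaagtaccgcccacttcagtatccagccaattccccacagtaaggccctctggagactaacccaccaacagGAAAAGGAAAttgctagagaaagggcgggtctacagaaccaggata
Ifitm3 (chr7:140590658-140590907): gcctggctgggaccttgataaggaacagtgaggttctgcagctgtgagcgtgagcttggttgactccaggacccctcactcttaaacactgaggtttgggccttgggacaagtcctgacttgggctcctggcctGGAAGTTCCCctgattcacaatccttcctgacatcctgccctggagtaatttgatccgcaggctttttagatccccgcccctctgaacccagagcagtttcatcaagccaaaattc
Ifitm3, first transcribed bases (chr7:140590628-140590657): agGAAAAGGAAAcTTCTGAGAAACCGAAAc

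Ifit1, Ifit3 and Ifit3b each held 2 ISRE matches with the same letters, TTTCACTTTC followed by TTTCAGTTTC. Counted from the RefSeq transcript start, their first bases lay at -104 and -85 in Ifit1, at -156 and -122 in Ifit3 and at -188 and -154 in Ifit3b. Ifit3 and Ifit3b were alike over most of the printed stretch. Ifitm2 and Ifitm3 shared the match GAAAAGGAAA, at -46 in Ifitm2 and at 3 in Ifitm3. Ifitm3 held a second ISRE match, GAAACCGAAA, at 20, which overlapped a GAS match at 14, and an NF-kB match at -116. Ifit2 had 2 RefSeq windows and no ISRE match in either; the printed one held an NF-kB match at -247 and an overlapping GAS match at -241. No match to any of the motifs was found in the Ifitm1 window. By comparison, 3.44% of all 32851 windows of 300 bases (250 before and 50 after a transcript start) and 3.15% of the 13652 windows of genes tested here held an ISRE match. A GAS match was found in 6.86% and an NF-kB match in 1.46% of the windows of tested genes. Matches describe letters in these windows and do not show binding.

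**Figure D1:**
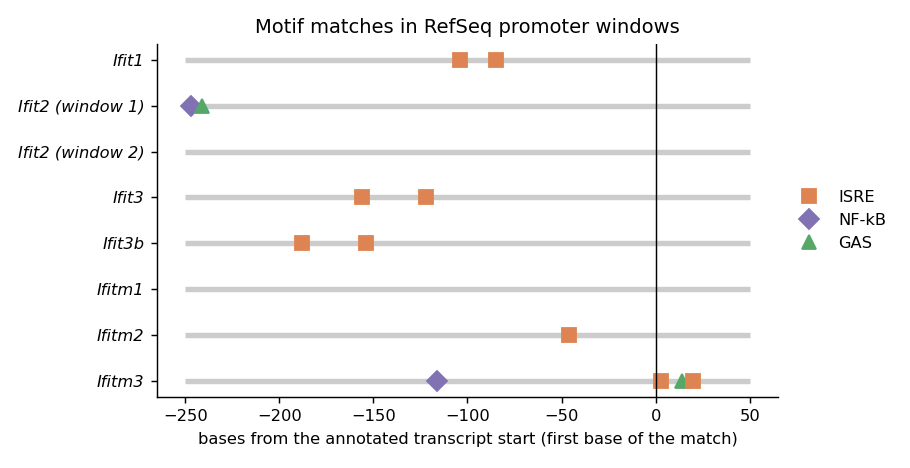
Motif matches in the RefSeq promoter windows of the 7 members. The x axis is the distance in bases of the first base of a match from the RefSeq transcript start. Ifit1, Ifit3 and Ifit3b carry 2 ISRE matches (squares) upstream of the start, Ifitm2 carries 1 upstream and Ifitm3 carries 2 just downstream, while Ifit2 and Ifitm1 carry none.

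The samples had between 32219900 and 44927203 reads counted on genes, so that a count of 0 allows up to 0.0668 to 0.0931 CPM (reads scaled to library size), a limit set by counting error alone. Ctrl replicate 1 stood apart from the other samples, with 49321 TPM (a level scaled to transcript length and library size) on the ribosomal RNA gene Rn18s-rs5. Counts without it are therefore given for the members, the other family genes, the antiviral effectors and all genes tested. The targeted gene Nfkbiz had 69.1, 75.2 and 63.4 TPM in the Ctrl samples and 34.8, 34.7 and 35.1 TPM in the Nfkbiz KO samples, which counts edited transcripts too. Of 7 melanocyte lineage markers, 6 stayed below 1 TPM in every sample, Sox10 and Tyr had no reads, and the summed level of the list was 1.11 to 1.74 TPM in Ctrl against 1.27 to 1.68 TPM in Nfkbiz KO. The cells were therefore called melanoma cells from their label alone. Markers of T and NK cells (4 of 4) and of macrophages and dendritic cells (5 of 5) were below 1 TPM throughout. The summed level of the 2 endothelial markers was 0.530 to 0.796 TPM in Ctrl against 1.31 to 1.83 TPM in Nfkbiz KO, and that of the 3 fibroblast markers was 48.4 to 57.0 and 47.4 to 49.98 TPM. Within these lists, Cdh5 rose 2.53-fold (adjusted p = 0.0023, edgeR) while Pecam1 was not called (adjusted p = 0.88), and Dcn fell by 42.1% (adjusted p = 0.00025) while Pdgfra was not called (adjusted p = 0.98). The part of these markers in the results was not tested. In bulk RNA, fewer cells of a type and less RNA per cell cannot be told apart.

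All 4 IFIT genes rose in Nfkbiz KO, whereas no IFITM gene did. Ifit1, Ifit2, Ifit3 and Ifit3b were between 1.86 and 2.69 times as high as in Ctrl. Ifitm2 fell by 23.4%, no difference was called for Ifitm3, and Ifitm1 was barely detected. A gene was called at an adjusted p of 0.05 or less in edgeR's quasi-likelihood test over all 14419 genes tested, which included 6 of the 7 members. Across all of these genes, 36.6% were called, 18.2% higher and 18.4% lower, so that 4 of 4 IFIT genes stood against 18.2% and 1 of 2 tested IFITM genes against 18.4%. Past a fold change of 2 were 3 of the 4 IFIT genes and no IFITM gene, against 2.56% of all genes higher and 3.36% lower at that size (5.92% in either direction). The 4 IFIT genes are in a list of IκBζ-regulated genes that the study drew in part from these samples, so the count is not independent evidence of their direction. It was also 4 IFIT genes higher and 1 IFITM gene lower without Ctrl replicate 1. In that fit, 4598 of 14793 genes tested were called, 2336 higher and 2262 lower.

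Ifit3 encodes a protein whose human counterpart binds IFIT1 and steadies its hold on RNA. It was the most abundant IFIT transcript, with 909.9, 980.1 and 922 TPM in Ctrl against 2339, 2320.3 and 2538 TPM in Nfkbiz KO. The lowest Nfkbiz KO sample was thus far above the highest Ctrl sample. The mean level was 937 ± 37.5 TPM in Ctrl against 2399 ± 121 TPM in Nfkbiz KO (SD, n = 3 each), which moved Ifit3 from rank 151 of 19035 genes with a level above 0 to rank 42 of 19026. Its log2 fold change from read counts was 1.26 (standard error, SE, 0.061; adjusted p = 1.4e-08, edgeR).

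Ifit3b is a mouse copy of Ifit3 in the same cluster. Its levels were 237, 255 and 256 TPM in Ctrl against 641, 637 and 690.4 TPM in Nfkbiz KO, again without overlap. It rose by a log2 fold change of 1.30 (SE 0.063, adjusted p = 1.4e-08, edgeR). The 2 genes share sequence. In their canonical transcripts, 296 stretches of 150 bases, the length of a read, were identical between them, which is 15.3% of the stretches of Ifit3 and 15.6% of those of Ifit3b. Reads that fit both genes can be divided between them by the counting, so each value alone is less certain than their sum. In every sample, however, at least 95.6% of the Ifit3 reads and 95.9% of the Ifit3b reads mapped to a single place. With these unique reads alone, the log2 fold changes of Ifit3 and Ifit3b were 1.26 and 1.30.

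Ifit1, whose protein binds viral RNA lacking the methyl marks of host messenger RNA, had 425, 451 and 461 TPM in Ctrl. Its levels in Nfkbiz KO were 839, 879 and 942 TPM. The groups did not overlap, yet the change was the smallest of the 4 genes, with a log2 fold change of 0.89 (SE 0.069, adjusted p = 7.9e-07, edgeR), or 1.86-fold with a 95% interval of 1.67 to 2.06. Ifit1 lies within Ifit1bl2 on the opposite strand, and the counting did not use strand, so reads of the 2 genes cannot be told apart where their exons overlap. Ifit1bl2 had 154 to 418 reads per sample, against 11717 to 31887 for Ifit1.

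Ifit2, whose human counterpart binds AU-rich RNA and joins IFIT1 and IFIT3 in complexes, was the least abundant IFIT transcript. It had 71.2, 87.2 and 70.4 TPM in Ctrl against 214, 210.3 and 239.7 TPM in Nfkbiz KO. Its rise was the largest of the 4 genes, at a log2 fold change of 1.43 (SE 0.072, adjusted p = 2e-08, edgeR), or 2.69-fold with a 95% interval of 2.41 to 2.996. All of its reads were unique, and no stretch of 150 bases was shared with another gene. Ifit2 had no ISRE match in its RefSeq windows, and Ifitm2 and Ifitm3, which did not rise, had such matches. Only these windows were searched, and a link between matches and changes was not tested.

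For each of the 4 IFIT genes and for Ifitm2, the 2 groups were separate on the CPM scale, a pattern seen for 48.4% of all genes tested. A two-sided exact permutation test gave p = 0.1 for each of these 5 genes, the smallest p that 3 samples against 3 allow. Omitting any 1 sample left the log2 fold change between 0.84 and 0.96 for Ifit1, 1.36 and 1.499 for Ifit2, 1.21 and 1.28 for Ifit3, and 1.26 and 1.35 for Ifit3b.

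**Figure D2:**
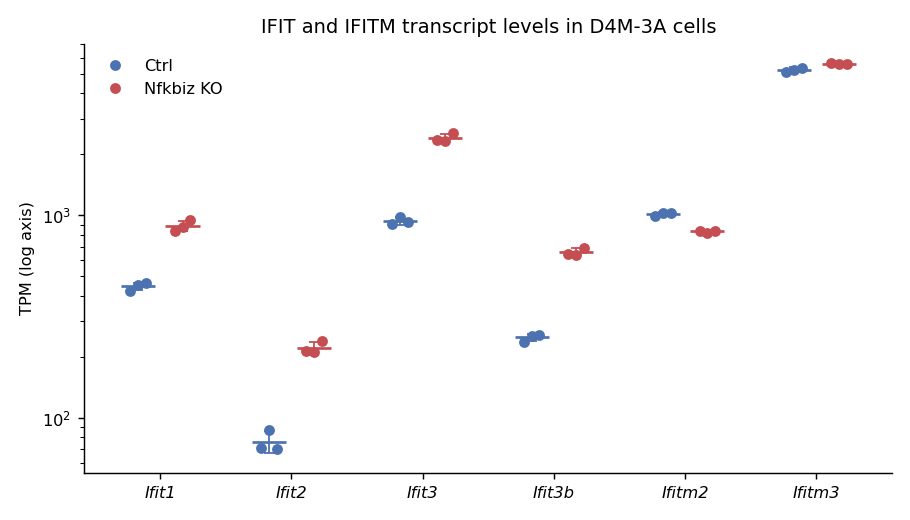
Levels of the 6 expressed members in TPM (log axis), with points for the 3 Ctrl (blue) and 3 Nfkbiz KO (red) samples, a line for the mean and bars for the SD. Each IFIT gene is higher in all 3 Nfkbiz KO samples, Ifitm2 is lower in all 3, and Ifitm3 lies between 5066 and 5611 TPM in all 6.

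Ifitm3, the family member best known for blocking influenza virus at the endosome, was the most abundant member by far. It had 5066, 5223 and 5359 TPM in Ctrl against 5611, 5548 and 5551 TPM in Nfkbiz KO, and held rank 14 among all genes in Ctrl and rank 12 in Nfkbiz KO. On the TPM scale the groups did not overlap, with the Nfkbiz KO samples slightly higher. On the CPM scale, which takes all reads on the gene, Ctrl values were 1025, 1004 and 1136 and Nfkbiz KO values 1052, 1051 and 1057, so that the groups overlapped. The log2 fold change was -0.00 with a 95% interval of -0.14 to 0.13 (adjusted p = 0.98, edgeR; two-sided exact permutation p = 1), and its sign turned with the scaling. Limma on log2(TPM + 1) gave a log2 difference of 0.095 that was not called either. Gm57251 overlaps Ifitm3 on the other strand. Without strand in the counting, reads of Gm57251 and Ifitm3 cannot be told apart where their exons overlap.

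Ifitm2 lies near Ifitm3 and encodes a related endosomal protein. Its levels were 986, 1025 and 1031 TPM in Ctrl against 839.8, 820.0 and 836 TPM in Nfkbiz KO. All 3 Nfkbiz KO samples were below all Ctrl samples, and the spread within each group was small. The log2 fold change was -0.38 (SE 0.056, adjusted p = 0.00017, edgeR) and lay between -0.41 and -0.34 when any 1 sample was omitted. Of the Ifitm2 reads, 92.3% to 94.0% per sample were unique. The annotation places Gm45717, a gene on the same strand with 27 to 93 reads per sample, over Ifitm2, and 14.3% of the 150-base stretches of Ifitm2 also occur in its transcripts. Gm74434 overlaps Ifitm2 on the other strand. Since the counting did not use strand, reads of Gm74434 and Ifitm2 cannot be told apart where their exons overlap. With unique reads alone, the log2 fold change of Ifitm2 was -0.39.

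Ifitm1, whose protein acts mainly at the plasma membrane, had 0, 3 and 4 reads in the Ctrl samples and 0 in every Nfkbiz KO sample. These 7 reads did not pass the filter on low counts, no fold change is given, and a difference between the groups was not detectable at this depth. Its highest level was 0.28 TPM, so the IFITM transcripts of these cells were almost entirely those of Ifitm3 and Ifitm2.

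In order of level, Ctrl cells had Ifitm3 first, followed by Ifitm2, Ifit3, Ifit1, Ifit3b, Ifit2 and Ifitm1, with no overlap between neighbours in TPM. In Nfkbiz KO, Ifit3 and Ifit1 came before Ifitm2, and here the values of Ifit1 and Ifitm2 overlapped, so that their order is not beyond the spread between samples. Summed over the family, the IFIT genes had 1708 ± 65.0 TPM in Ctrl against 4164 ± 214 TPM in Nfkbiz KO. The IFITM genes had 6230.0 ± 169 and 6402 ± 43.2 TPM. For every 100 TPM of IFITM transcripts there were thus 27.4 ± 0.843 TPM of IFIT transcripts in Ctrl, and 65.0 ± 3.51 TPM of them in Nfkbiz KO (SD, n = 3 each).

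The make-up of the families was compared within samples. Ratios between members of the same sample do not depend on the scaling between samples, and 6 of them were compared from unique reads, with a two-sided exact permutation test and Benjamini-Hochberg adjustment over the 6 ratios. The log2 ratio of Ifit1 to Ifit3 was -0.47, -0.49 and -0.37 in Ctrl and -0.85, -0.77 and -0.80 in Nfkbiz KO. It was thus lower in Nfkbiz KO by a mean difference of -0.37 without overlap (exact p = 0.1, adjusted 0.15). The share of Ifit1 in all IFIT transcripts was 26.1% ± 0.797 in Ctrl and 21.3% ± 0.457 in Nfkbiz KO. The log2 ratio of Ifit2 to Ifit3 was -2.37, -2.20 and -2.41 in Ctrl and -2.17, -2.19 and -2.13 in Nfkbiz KO. Its difference of 0.17 was likewise without overlap (exact p = 0.1, adjusted 0.15), but the highest Ctrl and the lowest Nfkbiz KO sample were next to each other. The ratio of Ifit3b to Ifit3 differed by 0.042 with overlapping groups (exact p = 0.4, adjusted 0.4). No difference was therefore shown between the responses of Ifit3 and Ifit3b.

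The log2 ratio of Ifitm2 to Ifitm3 had a narrow spread, with -2.52, -2.51 and -2.51 in Ctrl and -2.90, -2.92 and -2.86 in Nfkbiz KO. The difference of -0.38 was many times the spread within either group (exact p = 0.1, adjusted 0.15). The share of Ifitm2 in all IFITM transcripts was 16.3% ± 0.134 in Ctrl and 12.995% ± 0.108 in Nfkbiz KO. Between the families, the log2 ratio of Ifit3 to Ifitm3 was -1.13, -1.06 and -1.19 in Ctrl and 0.088, 0.097 and 0.23 in Nfkbiz KO. By reads, Ifit3 was thus below Ifitm3 in every Ctrl sample and above it in every Nfkbiz KO sample (difference 1.26, exact p = 0.1, adjusted 0.15), although by TPM, which accounts for transcript length, Ifitm3 stayed above Ifit3. The ratio of Ifitm1 to Ifitm3 rests on 7 reads and the added 0.5, and its groups overlapped (exact p = 0.2, adjusted 0.24). No ratio passed an adjusted p of 0.05, which 3 samples against 3 cannot reach.

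**Figure D3:**
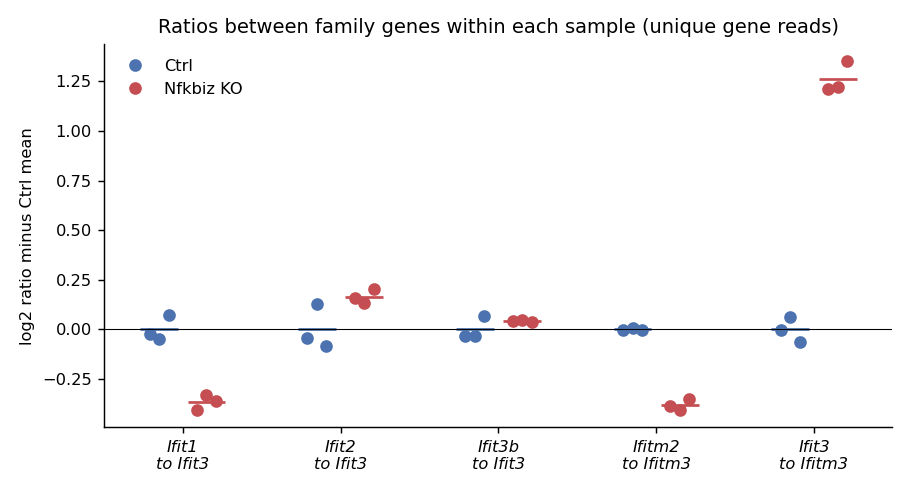
Log2 ratios between members within each sample from unique reads, shown relative to the Ctrl mean of each ratio, with points for samples and lines for group means. Ifit1 to Ifit3 and Ifitm2 to Ifitm3 are lower in all 3 Nfkbiz KO samples, Ifit3 to Ifitm3 is higher by 1.26 on average, and Ifit3b to Ifit3 overlaps between the groups.

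Other genes of these mouse families were expressed at far lower levels. Ifit1bl1 and Ifit1bl2, IFIT-like genes of the same cluster, rose with log2 fold changes of 1.27 (SE 0.21, adjusted p = 0.00055, edgeR) and 1.04 (SE 0.13, adjusted p = 5.9e-05, edgeR). Ifit1bl1 had 35, 53 and 41 reads in Ctrl against 88, 95 and 136 in Nfkbiz KO. Ifit1bl2 had 154, 195 and 164 reads in Ctrl against 335, 325 and 418 in Nfkbiz KO, some of which may belong to Ifit1, since the genes overlap. Both held ISRE matches. Those of Ifit1bl2 come from the stretch it shares with the Ifit1 promoter, read on the other strand.

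Ifitm10, which differs from the antiviral members in sequence, fell by 1.07 on the log2 scale (SE 0.25, adjusted p = 0.0054, edgeR; -0.50 with limma on log2(TPM + 1)), from 45, 74 and 93 reads in Ctrl to 31, 34 and 36 in Nfkbiz KO. Ifitm6 had 4, 5 and 31 reads in Ctrl against 10, 7 and 20 in Nfkbiz KO, and its log2 fold change of -0.12 had a 95% interval of -1.5 to 1.27. Ifitm5, a bone gene, and Ifitm7 did not pass the filter on low counts. Among the 4 tested genes of this group, 2 were called higher and 1 lower, against 18.2% and 18.4% of all genes tested. Without Ctrl replicate 1, Ifitm5 passed the filter too and 2 genes were called lower. Ifitm5 then had a log2 fold change of -1.52 (adjusted p = 0.028, edgeR). That call is weak, since Ifitm5 had 8, 16 and 22 reads in Ctrl against 6, 5 and 8 in Nfkbiz KO. Only Ctrl samples thus reached 10 reads, and 73.8% of its reads were unique. Ifitm5 was not called without a filter (adjusted p = 0.11, edgeR). Nor was it called without Nfkbiz KO replicate 1, 2 or 3 (adjusted p = 0.099, 0.16 and 0.11, edgeR).

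**Figure D4:**
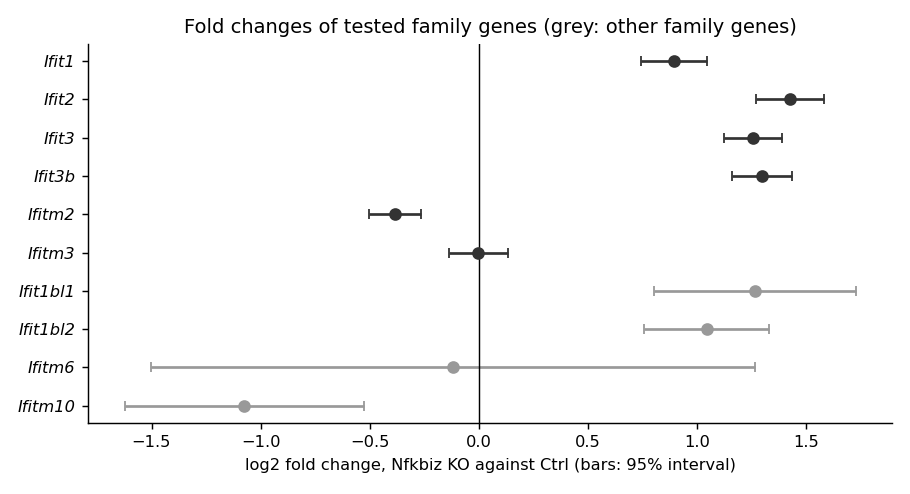
Log2 fold changes (Nfkbiz KO against Ctrl) of the 6 tested members (black) and of the 4 other tested family genes (grey), with bars for the 95% interval. The 4 IFIT genes and their 2 relatives lie above 0, Ifitm2 and Ifitm10 lie below 0, and the intervals of Ifitm3 and Ifitm6 include 0.

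Other genes of the interferon pathway were followed through lists chosen with earlier results of these data known, so their counts are a description. Among ligands and receptors, Ifnb1, which encodes interferon beta, had 14, 20 and 14 reads in Ctrl against 43, 54 and 71 in Nfkbiz KO. Its level remained low at 1.60 ± 0.720 and 4.596 ± 0.773 TPM, but the groups did not overlap and the log2 fold change was 1.76 (SE 0.28, adjusted p = 0.00042, edgeR), or 1.13 with limma on log2(TPM + 1), which understates the change of low genes. Of its receptor chains, Ifnar2 fell by 0.25 on the log2 scale (adjusted p = 0.0051, edgeR), and Ifnar1 had a log2 fold change of -0.07 (adjusted p = 0.37). Ifng, the type II interferon, had no reads in any sample. Of its receptor chains, Ifngr1 was called lower at a log2 fold change of -0.18 (adjusted p = 0.022) and Ifngr2 was not called (-0.10, adjusted p = 0.17). The call of Ifngr1 was lost without any 1 of Nfkbiz KO replicates 1, 2 or 3, which left 0 genes of this list called.

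Along the signal from the receptor, Stat2 rose by 0.23 on the log2 scale (adjusted p = 0.0058, edgeR), while Irf9 was at 0.08 (adjusted p = 0.26), and the kinase genes Jak1 and Tyk2 were at -0.00 and -0.08 (adjusted p = 0.98 and 0.41). Among 6 IRF factors, 4 were called higher and none lower, against 18.2% and 18.4% of all genes tested, with a median log2 fold change of 0.39. Irf7, an amplifier of the interferon response, had 421 ± 13.1 TPM in Ctrl against 657 ± 6.86 TPM in Nfkbiz KO, and Irf5 had the largest change of the list at 1.17 (adjusted p = 7.7e-07, edgeR). The feedback inhibitors were divided. Usp18, which blocks the type I receptor, rose by 0.59 and Socs3, a target of STAT3 that restrains JAK kinases, fell by 1.07 on the log2 scale (adjusted p = 2.5e-06 and 8.1e-08, edgeR), while Socs1 was at 0.07 (adjusted p = 0.65).

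RNA sensors of the cytosol, whose ligands overlap with those of IFIT proteins, had 4 of 5 tested genes called higher, against 18.2% of all genes, and none lower (median log2 fold change 0.44). Ifih1 (MDA5) rose by 0.80 and Ddx58 (RIG-I) by 0.44 on the log2 scale. Of 18 other interferon-induced antiviral effectors, 17 were called higher and none lower, against 18.2% called higher among all genes tested. Their median log2 fold change was 0.62, beside 1.28 for the 4 IFIT genes, -0.19 for the 2 tested IFITM genes and -0.02 for all genes. Mx1, a GTPase that traps viral nucleocapsids, had 13.7 ± 1.79 TPM in Ctrl against 44.4 ± 1.97 TPM in Nfkbiz KO and was the only gene of this list above all 4 IFIT genes in log2 fold change, at 1.65 (adjusted p = 4.4e-09, edgeR). Rsad2 (viperin) followed at 1.01. Log2 fold changes were smaller for 2 transcripts that were more abundant than Ifit3, of which 1 was called. Isg15, a ubiquitin-like modifier, had 2386 ± 81.5 and 3101 ± 47.7 TPM with a log2 fold change of 0.28 (adjusted p = 0.0047), and Bst2 (tetherin), which holds budding viruses at the membrane, had 3528 ± 135 and 4256 ± 70.6 TPM and was not called (0.17, adjusted p = 0.066). The count of this list was 18 of 18, Bst2 included, with DESeq2, without a filter on low counts and without Ctrl replicate 3, but 16 without Ctrl replicate 1 or any 1 of the Nfkbiz KO samples. None of the 3 genes for enzymes that modify or process IFITM proteins or interact with them was called. The log2 fold change was -0.03 for the palmitoyltransferase Zdhhc20, -0.03 for the ubiquitin ligase Nedd4 and 0.07 for the protease Zmpste24.

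**Figure D5:**
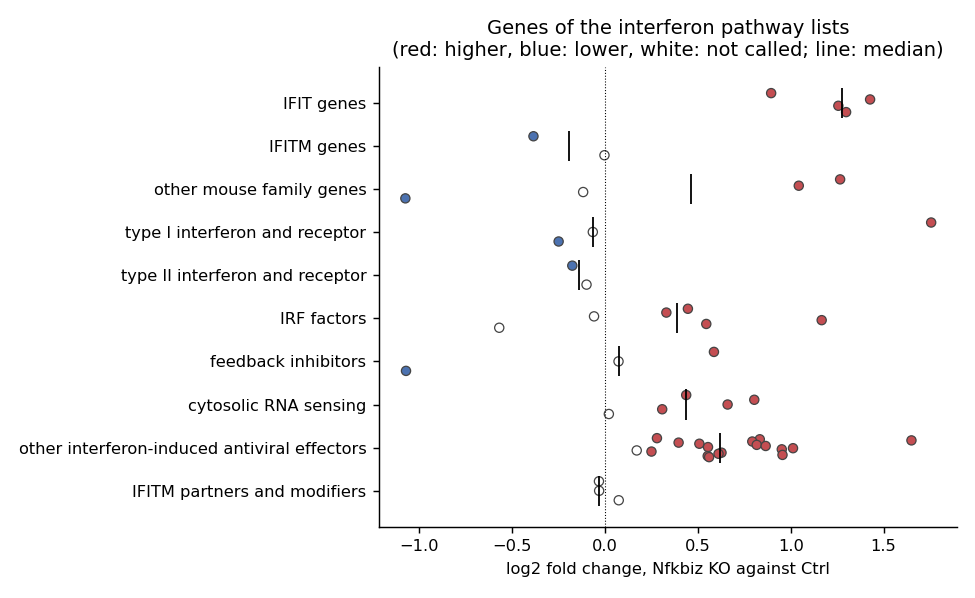
Log2 fold changes (Nfkbiz KO against Ctrl) of the tested genes of the interferon pathway lists other than the JAK kinases and ISGF3, with 1 point per gene, red for called higher, blue for called lower and white for not called; the short line is the list's median. The IFIT genes lie between 0.89 and 1.43, and 17 of the 18 other antiviral effectors are called higher, while the IFITM genes and their modifiers lie at or below 0.07.

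Matches to the ISRE letters were also counted in these lists. They were found in 6 of the 14 antiviral effector genes with a RefSeq window (42.9%), among them Isg15, Rsad2 and Bst2, and in 3.82% of the 10698 tested genes with a window. RNA sensors had them in 2 of 4 genes with a window, feedback inhibitors in 1 of 2 (Socs1) and IRF factors in 1 of 6 (Irf2). The type I and type II interferon lists and the IFITM modifiers had them in 0 of 3 genes each. Among the members, matches were present in 3 of 4 IFIT and 2 of 3 IFITM genes.

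The genes whose pattern over the 6 samples was most like that of the IFIT members were sought among 11879 genes with a mean level of at least 1 TPM, by the root mean square difference of log2 CPM values centred on each gene's mean. Pnpla7, a lysophospholipase gene, came closest (0.045), followed by Ndp (0.056), which encodes the Wnt receptor ligand norrin, and Esm1 (0.058), which encodes endocan. Their log2 fold changes were 1.23, 1.20 and 1.21. For comparison, Ifit3 differed from the mean IFIT profile by 0.023, Ifit3b by 0.050, Ifit2 by 0.12 and Ifit1 by 0.17. For the mean profile of Ifitm2 and Ifitm3, the closest genes were Hmgn1 (0.0082), Pdia6 (0.0090) and Dnajc15 (0.013), each with a log2 fold change of -0.20. Ifitm2 and Ifitm3 themselves each differed from their mean by 0.096, since 1 fell and the other did not. All 6 samples enter every profile, so genes are alike here mainly through the difference between the groups.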

How the data were processed

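Total RNA of D4M-3A cells was sequenced with paired reads of 150 bases in 3 Ctrl and 3 Nfkbiz KO samples, grouped by the genotype and title in the labels. The samples of a group are described as independent experiments, but no label ties them to separate cultures, so p-values measure the spread between these samples, which may be technical. Reads were aligned by the authors in CLC Genomics Workbench at default settings, without regard to strand, with at most 10 hits per read, and with broken pairs ignored. The methods name GRCm39 as the build and the labels name GRCm38, and the deposited tables hold no coordinates. The deposited tables give, per gene, total and unique gene reads as raw counts. The deposited TPM values were scaled by the authors to transcript length and depth over exons. Decimal commas were converted, and RPKM values were not used.

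Total gene reads were tested with edgeR 4.0.16 in R 4.3.3 (TMM factors, filterByExpr at its defaults, i.e. counts of at least 10 and totals of at least 15, quasi-likelihood test, Benjamini-Hochberg adjustment across tested genes). A gene was called at an adjusted p of 0.05 or less, whatever its fold change. The filter of the study also required a fold change above 2 and a minimum difference of unstated unit, which was not applied here, and its methods name no count model. CPM and ratios between members were compared by exact permutation tests, the ratios after adding 0.5 to unique reads. Alternatives were RLE factors, DESeq2 1.42.0, other filters, unique reads, limma 3.58.1 on log2(TPM + 1) and log2(TPM + 0.1), a replicate block and each sample left out in turn. The members and lists were chosen with earlier results of these data known. Genes were named if they were members, Nfkbiz, markers, genes of the pathway lists, or 1 of the 3 genes most like each family's mean profile. Others, such as Rn18s-rs5 and Gm45717, were named after their values were seen, and Gm74434 and Gm57251 were named from the annotation. Within each group the counts of any 2 samples differed by more than counting noise (chi-square per degree of freedom 27.8 to 71.4 between Ctrl samples and 3.53 to 6.24 between Nfkbiz KO samples), so no sample was a duplicate. Unique reads made up 96.5% to 96.9% of gene reads. The result of 1 gene of the JAK-STAT list, and with it the count of that list, is not reported here. Coordinates are on GRCm39. Figures were drawn with matplotlib 3.10.9 in Python 3.11.15.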

Additional observations from a re-analysis of the deposited data

How the results depend on the processing

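The counts of 4 IFIT genes higher and 1 IFITM gene lower, and the calls of Ifit1, Ifit2, Ifit3, Ifit3b, Ifitm2 and Nfkbiz, were the same in all 14 alternatives run. Over these, log2 fold changes ranged from 0.84 to 0.99 for Ifit1, 1.36 to 1.54 for Ifit2, 1.21 to 1.36 for Ifit3, 1.26 to 1.40 for Ifit3b and -0.41 to -0.28 for Ifitm2 (highest adjusted p 0.003). The value of Ifitm3 lay close to 0 and turned sign, to 0.0044 with RLE factors, 0.0044 with DESeq2, 0.0051 without a filter, 0.095 with limma on log2(TPM + 1), 0.095 on log2(TPM + 0.1), and over omissions of 1 sample from -0.029 (Ctrl replicate 2) to 0.053 (Ctrl replicate 3). It was called in none of these. Ifitm6 also turned, to 0.14 and 0.42 on the TPM scales with 1 and 0.1 added, 0.035 with the replicate block, 0.17 without Nfkbiz KO replicate 2 and 1.31 without Ctrl replicate 3, and reached -0.51 with another sample left out. The cause was not tested.

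Over all genes, 5274 were called (2627 higher, 2647 lower), and 3798 to 5533 with each sample left out. Limma called 3004 higher and 1327 lower on log2(TPM + 1), of which 309 in both directions passed a fold change of 2 against 854 in the edgeR fit, and 2947 higher and 1279 lower on log2(TPM + 0.1). The median of all genes was 0.063 and 0.080 on these scales, against -0.02. The log2 ratio of Ifitm1 to Ifitm3 differed by -2.01 from unique reads and by -0.50 from TPM, since the added 0.5 weighs differently on a few reads. Among genes with few reads, the log2 fold change ranged from 1.13 to 1.96 for Ifnb1, -1.36 to -0.50 for Ifitm10, 0.82 to 1.46 for Ifit1bl1 and 0.85 to 1.16 for Ifit1bl2, all called throughout. The call of Ifngr1 was lost without a filter and on both TPM scales.

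The replicate block gave 5087 calls and changed no call of a member. Samples with the same number did not deviate together (correlations across genes of 0.037, -0.023 and 0.026). With so few samples, this check cannot show whether they were handled together.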
